A study of Mus musculus with 8 samples.

Results

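Acyl-CoA thioesterases split an acyl-CoA, the activated form of a fatty acid, into the free acid and coenzyme A. They work against the acyl-CoA synthetases and so help to set how much activated fatty acid each compartment of a cell holds. The liver expresses many of them, in the cytosol, the mitochondrial matrix and the peroxisome, and several genes of the family are well-known targets of PPARα, the fatty acid receptor that *Ppara* encodes. Type I members belong to the alpha/beta-hydrolase fold enzymes and lie side by side in the genome, whereas type II members share the hotdog fold and are scattered.

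The 10 members were chosen by name, *Acot1*, *Acot2*, *Acot3*, *Acot4*, *Acot7*, *Acot8*, *Acot9*, *Acot11*, *Acot12* and *Acot13*, and looked up by Ensembl identifier. All 10 were among the 45706 identifiers of the count table, and all 10 were among the 15491 genes with enough counts to be tested. Poly(A)-selected liver RNA was sequenced from 8 male mice fed a diet with 60% of its calories from fat for 12 weeks. The 4 mice labelled *Srsf10-kd* had received an AAV2/8 that carries a short hairpin RNA against *Srsf10*, a splicing factor of the SR family, and the 4 mice labelled *Ctrl* a control AAV, both by tail vein at 6 weeks of age and 4 weeks before the diet. The chicken β-actin promoter that drives the hairpin and GFP is active in many cell types, and both groups carry virus and ate the same diet. GEO's labels give the genotypes as Srsf10KD and WT and the strain as C56B6/J, and they number the livers without naming the animals, so that p-values describe the spread between these livers. The question was whether the RNA of the family differed between *Srsf10-kd* and *Ctrl* livers.

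Each liver had between 50456404 and 59697241 counts on genes. Levels are given as CPM, counts brought to a common library size by TMM scaling, and differences as log2 fold changes of *Srsf10-kd* over *Ctrl* from the quasi-likelihood test of edgeR (two-sided), whose p-values were adjusted by the Benjamini-Hochberg method for all 15491 tested genes. *Srsf10* itself was at 34.3, 34.0, 41.0 and 36.5 CPM in *Srsf10-kd* livers 1 to 4 and at 31.6, 33.7, 35.3 and 30.9 CPM in *Ctrl* livers 1 to 4. Its log2 fold change was 0.15 (edgeR adjusted p = 0.378), so the group names stand here as labels. The study itself reported lower SRSF10 protein by western blot and lower *Srsf10* RNA by qPCR in livers given the hairpin virus. Whether those included the livers sequenced here is not stated. The liver labelled *Srsf10-kd* 3 stood apart on the first principal component, which held 44.8% of the variance, at 67.4 against a range of -41.8 to 11.5 for the other 7 livers. All 8 livers had high levels of 8 hepatocyte markers, which summed to between 86312 and 117825 CPM. At unadjusted p under 0.05 in edgeR were 2 of the 8, both lower in *Srsf10-kd* livers, against 21.8% of all tested genes. None of the 8 passed adjusted p 0.05. The 5 cholangiocyte markers summed to between 46.5 and 68.6 CPM in *Srsf10-kd* livers and between 31.4 and 39.1 CPM in *Ctrl* livers, without overlap. Of all tested genes, 14.3% also had groups without overlap, and the part of cholangiocytes in the results was not tested. The summed markers of macrophages, endothelial cells, stellate cells, lymphocytes and adipocytes overlapped between the groups. In bulk liver, a change in the share of a cell type and a change of RNA per cell cannot be told apart.

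Type I members share long stretches of sequence, which bears on how far their counts can be separated. On GRCm38, *Acot2* lies at chr12:83987861-83993873, *Acot1* at chr12:84009490-84018371, *Acot4* at chr12:84038379-84048601 and *Acot3* at chr12:84052144-84060402, all on the plus strand. The protein-coding transcripts of *Acot1* and *Acot2* hold an identical run of 273 bases. The last 75 bases of that run, the length used here to stand for a read, and the next 45 bases are printed for both genes, from coding exon 3 at chr12:84017204-84017323 for *Acot1* and at chr12:83992926-83993045 for *Acot2* (plus strand), with capitals at the 5 bases that differ.
Acot1: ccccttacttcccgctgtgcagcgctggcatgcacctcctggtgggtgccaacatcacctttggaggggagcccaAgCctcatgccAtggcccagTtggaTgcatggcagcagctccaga
Acot2: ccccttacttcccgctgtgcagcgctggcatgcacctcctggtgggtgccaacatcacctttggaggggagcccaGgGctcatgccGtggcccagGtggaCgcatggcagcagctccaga
Of the 75-base stretches in annotated transcripts of *Acot1*, 15.0% recurred in another gene, most often *Acot2*, and of those of *Acot2* 21.2% recurred, most often in *Acot1*. *Acot3* shared 18.1%, mostly with *Gm49366*, a gene annotated on the same strand, and *Acot4* 9.90%, mostly with the antisense gene *4732463B04Rik*. Among type II members, *Acot11* shared 15.5% with *Fam151a* and *Acot8* 8.44% with *Snx21*, both on the opposite strand. *Acot9* shared 5.29%, mostly with *Acot10*, and *Acot12* 2.33%, whereas *Acot7* and *Acot13* shared none. The strand setting behind the counts is not given in the sources used here, so overlapping and near-identical members are uncertain to that extent.

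The promoters of the members were searched for the hexamer AGGTCA, which nuclear receptors such as PPARα read, and for the direct repeat of this hexamer spaced by 1 base, on both strands of the window from 250 bases before to 50 bases after the RefSeq start (GRCm38.p6). RefSeq windows were matched by symbol for 9 of the 10 members, all but *Acot13*. The hexamer stood in windows of 3 members, *Acot3*, *Acot4* and *Acot12*, and in 16.3% of the 32851 windows of all genes. The direct repeat stood in no window of these 9 members and in 0.0396% of all windows. The 3 matches are shown because they are the only ones in these windows of the family, with 12 bases on each side, on the plus strand and with the hexamer, which reads on the minus strand, in capitals.
Acot4, chr12:84038354-84038383: agccccgaagcaTGACCTttggccggtctg
Acot3, chr12:84052150-84052179: gttattagctctTGACCTtgtctgtctgct
Acot12, chr13:91741399-91741428: ctcgtaggacccTGACCTctcacctcctaa
The match in *Acot4* begins 13 bases before the start and that in *Acot12* 110 bases before it, whereas the match in *Acot3* lies after the start.

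None of the 10 members passed an adjusted p of 0.05 between *Srsf10-kd* and *Ctrl* livers in edgeR, where 11 of all tested genes (0.071%) did, and the lowest adjusted p of a member was 0.144. At an unadjusted p under 0.05 stood 3 of the 10 members, *Acot13*, *Acot4* and *Acot12*, against 21.8% of all tested genes. In the estimates, 5 members were higher and 5 lower in *Srsf10-kd* livers. The median log2 fold change of the members was -0.0028, against 0.013 for all tested genes. DESeq2 and limma-voom with sample quality weights also called 0 of the 10 members. They called 890 and 1814 of the 15491 tested genes, and with 10 members 0 calls is not far from either share.

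**Figure D1:**
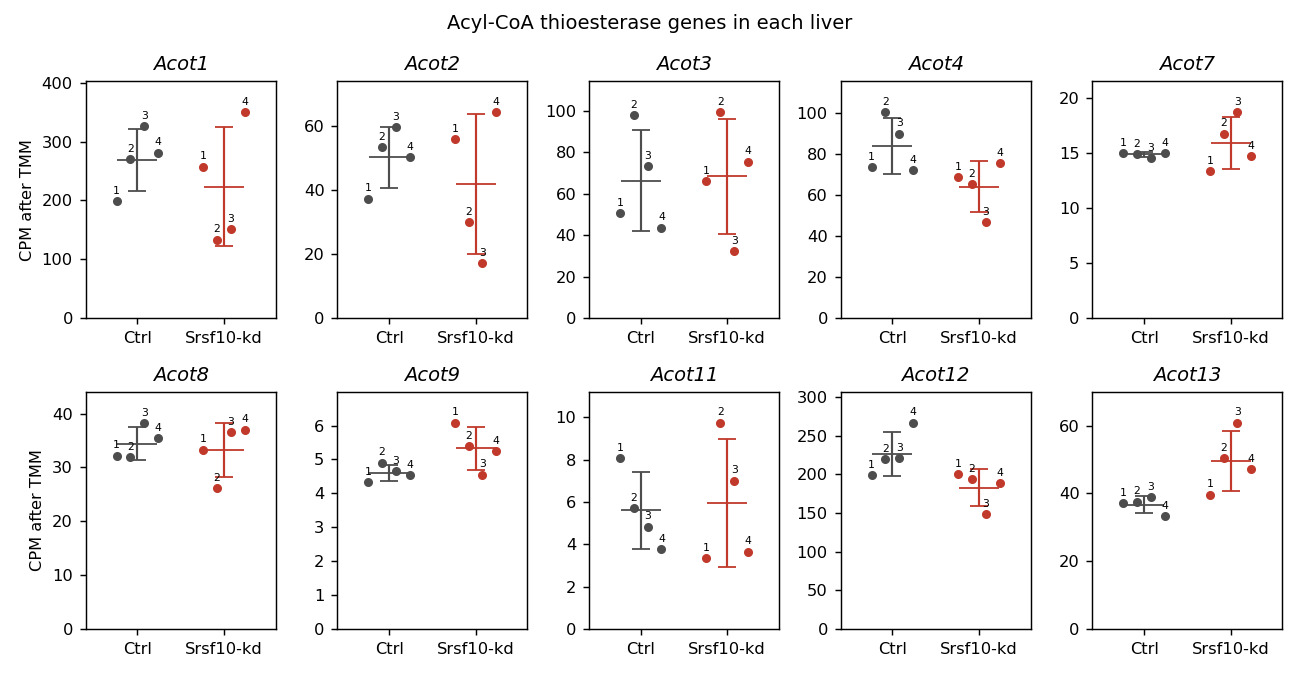
CPM after TMM scaling of each member (vertical axes, from 0) in *Ctrl* (grey) and *Srsf10-kd* livers (red), with 1 point per liver, numbered, and bars for the mean ± SD (n = 4 per group). Only *Acot13* separates the groups, with all 4 *Srsf10-kd* livers at or above 39.7 CPM and all 4 *Ctrl* livers at or below 38.9 CPM, whereas *Acot1*, *Acot2*, *Acot3* and *Acot11* vary more within a group than between groups.

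The levels of the members differed widely. They were divided by the merged length of all annotated exons, which can exceed the longest transcript. For *Acot1* these lengths were 3919 and 2613 bases, for *Acot8* 1997 and 1276 bases, and for *Acot13* 744 and 721 bases. The order here and the shares by place were not computed with other lengths and depend on this choice. Per kilobase of exon, the most abundant members in *Ctrl* livers were *Acot12* at 68.9 ± 8.67 CPM per kb (SD, n = 4), *Acot1* at 68.7 ± 13.5 CPM per kb and *Acot13* at 49.3 ± 3.30 CPM per kb. *Acot12* and *Acot1* overlapped over the *Ctrl* livers and so did *Acot1* and *Acot13*. A gap followed, since *Acot13* exceeded *Acot2* in all 8 livers. *Acot2* (22.9 ± 4.29 CPM per kb), *Acot3* (19.3 ± 7.13) and *Acot8* (17.2 ± 1.51) overlapped with their neighbours in this order. Each later step was separate over the *Ctrl* livers, from *Acot8* down to *Acot4* at 12.6 ± 2.05 CPM per kb, *Acot7* at 6.99 ± 0.113, *Acot9* at 2.03 ± 0.104 and *Acot11* at 0.924 ± 0.302. The level of *Acot11*, a gene known from brown fat, was the lowest of the 10. *Ucp1*, the marker of brown adipocytes, had 182 counts in *Srsf10-kd* 4, 30 counts in *Ctrl* 2 and 0 to 3 counts in the other livers, and *Acot11* was at 3.65 CPM in *Srsf10-kd* 4 and at 5.71 CPM in *Ctrl* 2.

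Summed by the place of the encoded enzyme, the 4 cytosolic members *Acot1*, *Acot7*, *Acot11* and *Acot12* made up 54.0% ± 3.58 (SD, n = 4) of the family's CPM per kb in *Ctrl* livers and 46.9% ± 4.86 in *Srsf10-kd* livers. The lowest *Ctrl* liver was at 51.3% and the highest *Srsf10-kd* liver at 51.2%, so the shares lay next to each other without overlap. Of all tested genes, 14.3% had groups without overlap. The shares of a liver add up to 100%, so a higher share of 1 place goes with lower shares elsewhere. The summed level of the cytosolic members overlapped, at 93.4 to 154 CPM per kb in *Srsf10-kd* and 119.7 to 161 CPM per kb in *Ctrl* livers. The mitochondrial *Acot2* and *Acot9* took 9.21% ± 0.735 in *Ctrl* and 8.13% ± 3.05 in *Srsf10-kd* livers, with overlap. The peroxisomal *Acot3*, *Acot4* and *Acot8* took 18.3% ± 2.47 and 18.1% ± 2.55, again with overlap. *Acot13*, whose enzyme is found in the cytosol and at mitochondria, took 18.5% ± 2.24 in *Ctrl* and 26.8% ± 7.85 in *Srsf10-kd* livers, with the highest share, 37.2%, in *Srsf10-kd* 3, and these groups overlapped. The summed level of the family overlapped between the groups, at 220.0 to 301 CPM per kb in *Srsf10-kd* livers and 230.4 to 294 CPM per kb in *Ctrl* livers. These sums are descriptions, and no test was run on them. The trend on transcript length described below, which moved with the difference of *Acot13*, was not removed from these sums and shares.

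**Figure D2:**
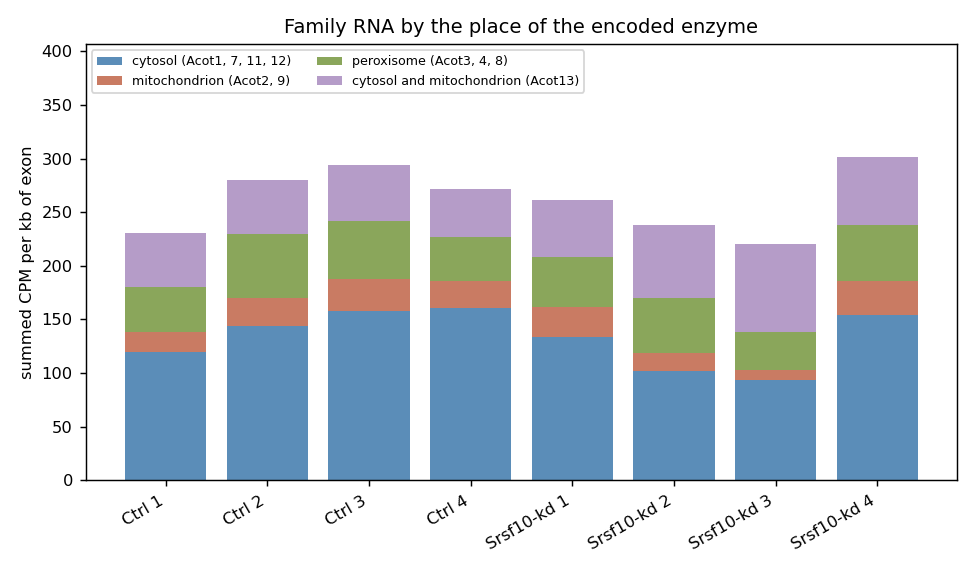
Summed CPM per kb of exon of the 10 members in each liver (vertical axis, from 0), stacked by the place of the encoded enzyme. The total lies between 220.0 and 301 CPM per kb, the cytosolic members form the largest block in every liver, and the *Acot13* block reaches 37.2% of the total in *Srsf10-kd* 3.

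Of the cytosolic members, *Acot1* and *Acot12* were the most abundant. *Acot1*, which hydrolyses long-chain acyl-CoA in the cytosol, stood at 258, 133, 151 and 350.3 CPM in *Srsf10-kd* livers 1 to 4 and at 199, 270.2, 327 and 281 CPM in *Ctrl* livers 1 to 4. The *Srsf10-kd* group held both the highest and the lowest liver and spanned 2.62-fold, so the *Ctrl* livers fell within its range. The log2 fold change was -0.27 (95% interval -0.92 to 0.38, edgeR adjusted p = 0.580). *Acot12*, the cytosolic acetyl-CoA hydrolase of liver, stood at 201, 194, 148 and 189 CPM in *Srsf10-kd* livers and at 199.6, 219, 221 and 267 CPM in *Ctrl* livers. The groups overlapped only through *Srsf10-kd* 1, which lay just above *Ctrl* 1, and all 4 *Srsf10-kd* livers were below the *Ctrl* median. The log2 fold change of *Acot12* was -0.31 (95% interval -0.61 to -0.01, unadjusted p = 0.0437, adjusted p = 0.218 in edgeR), and an exact permutation test (two-sided, 70 ways of assigning the livers) gave p = 0.0571.

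*Acot7*, best known as a long-chain acyl-CoA hydrolase of brain, was held within 14.5 to 15.0 CPM in the *Ctrl* livers. In *Srsf10-kd* livers 1 to 4 it stood at 13.4, 16.7, 18.7 and 14.7 CPM, on both sides of the *Ctrl* range, with a log2 fold change of 0.10 (edgeR adjusted p = 0.635). *Acot11* stood at 3.35, 9.74, 7.0 and 3.65 CPM in *Srsf10-kd* livers and at 8.07, 5.71, 4.83 and 3.77 CPM in *Ctrl* livers. Neither group lay above the other, and the log2 fold change was 0.08 (95% interval -0.71 to 0.87, edgeR adjusted p = 0.903).

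*Acot13*, also known as Them2, a small hotdog-fold hydrolase of long-chain acyl-CoA, was the member with the lowest p. It stood at 39.7, 50.5, 60.9 and 47.2 CPM in *Srsf10-kd* livers 1 to 4 and at 37.2, 37.6, 38.9 and 33.2 CPM in *Ctrl* livers 1 to 4. Every *Srsf10-kd* liver was above every *Ctrl* liver, although *Srsf10-kd* 1 exceeded *Ctrl* 3 by less than 1 CPM. *Acot13* was 1 of 10 members whose groups did not overlap, against 14.3% of all tested genes in either direction and 6.73% with the *Srsf10-kd* livers higher. The log2 fold change was 0.43 (95% interval 0.13 to 0.73, unadjusted p = 0.00899, adjusted p = 0.144 in edgeR), and the exact permutation test gave p = 0.0286, the smallest that 4 against 4 livers allow. Without *Srsf10-kd* 3 the log2 fold change was 0.32 (adjusted p = 0.195).

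Transcript length moved with this difference. The annotated transcripts of *Acot13* reach 721 bases, the shortest of the family. The 1543 tested genes with transcripts under 1000 bases stood at 0.41 in the median on the log2 scale, with 83.1% higher in *Srsf10-kd* livers, whereas the median of the 5133 genes with transcripts of 4000 bases or more was -0.19. After the trend of each library on transcript length was removed, the log2 fold change of *Acot13* was 0.09 (95% interval -0.13 to 0.31, edgeR adjusted p = 0.679). That of *Acot4*, whose transcripts reach 6203 bases, moved from -0.39 to -0.19, and that of *Acot12*, whose transcripts reach 3058 bases, stayed at -0.31 (adjusted p = 0.280). That of *Acot8* moved from -0.05 to -0.28 (unadjusted p = 0.0311, adjusted p = 0.276).

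**Figure D3:**
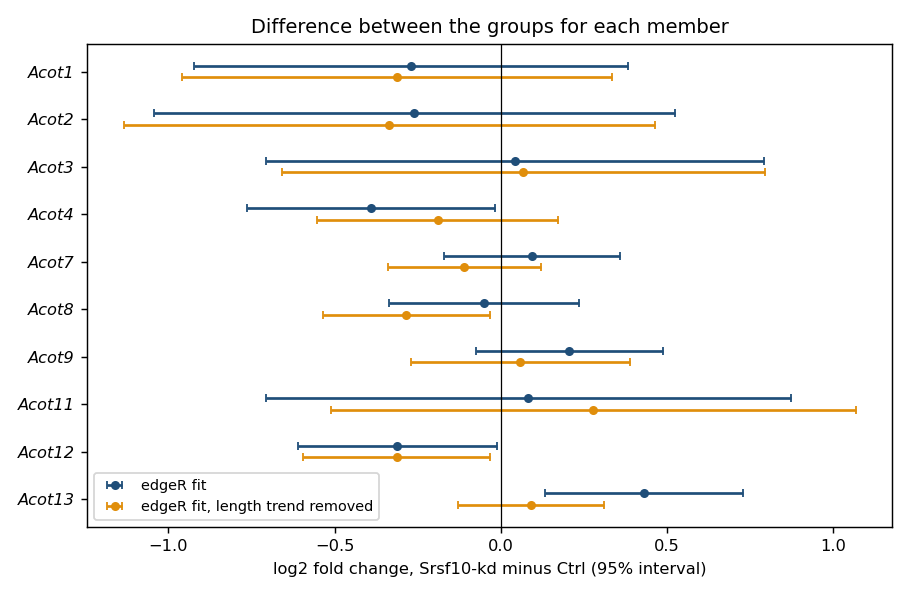
Log2 fold change of each member, *Srsf10-kd* minus *Ctrl*, with 95% intervals, in the edgeR fit (blue) and after removal of each library's trend on transcript length (orange). The intervals of *Acot13*, *Acot4* and *Acot12* exclude 0 in the first fit, and those of *Acot8* and *Acot12* in the second, whereas no adjusted p was under 0.05 in either.

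Mitochondrial members did not separate the groups. *Acot2*, the long-chain hydrolase of the mitochondrial matrix, stood at 56.0, 30.1, 17.3 and 64.5 CPM in *Srsf10-kd* livers 1 to 4 and at 37.4, 53.5, 59.8 and 50.4 CPM in *Ctrl* livers. As for *Acot1*, the extremes were both in the *Srsf10-kd* group, which spanned 3.73-fold, and its log2 fold change of -0.26 (95% interval -1.04 to 0.52, edgeR adjusted p = 0.663) became 0.00 without *Srsf10-kd* 3. *Acot9* stood at 6.08, 5.40, 4.55 and 5.26 CPM in *Srsf10-kd* livers and at 4.34, 4.91, 4.65 and 4.55 CPM in *Ctrl* livers. All *Srsf10-kd* livers but the third lay above the *Ctrl* range, with a log2 fold change of 0.21 (edgeR adjusted p = 0.339).

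Of the peroxisomal members, *Acot4*, which hydrolyses succinyl-CoA and the CoA esters of dicarboxylic acids, stood at 69.1, 65.4, 47.0 and 75.6 CPM in *Srsf10-kd* livers and at 73.7, 101, 90.2 and 72.4 CPM in *Ctrl* livers. All 4 *Srsf10-kd* livers were below the *Ctrl* median, with overlap through *Srsf10-kd* 4. The log2 fold change was -0.39 (95% interval -0.76 to -0.02, unadjusted p = 0.0417, adjusted p = 0.216 in edgeR), and the exact permutation test gave p = 0.0857. *Acot3*, a peroxisomal hydrolase of long-chain acyl-CoA, stood at 66.2, 99.3, 32.4 and 75.5 CPM in *Srsf10-kd* livers and at 50.5, 97.7, 73.4 and 43.6 CPM in *Ctrl* livers. Both groups were wide and covered each other, with a log2 fold change of 0.04 (95% interval -0.71 to 0.79, edgeR adjusted p = 0.947). *Acot8*, the broad peroxisomal thioesterase that also accepts bile acid CoA esters, stood at 33.3, 26.2, 36.6 and 37.0 CPM in *Srsf10-kd* livers and at 32.2, 31.9, 38.3 and 35.4 CPM in *Ctrl* livers, a log2 fold change of -0.05 (edgeR adjusted p = 0.832).

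How far the livers of a group spread differed between members. The within-group SD of log2 CPM was 0.65 for *Acot2*, 0.61 for *Acot11*, 0.61 for *Acot3* and 0.51 for *Acot1*, larger than in 95.3%, 94.3%, 94.2% and 89.2% of all tested genes. It was 0.13 for *Acot9* and 0.15 for *Acot7*, and only 14.4% and 20% of tested genes had a smaller one. The median over all tested genes was 0.26. The wide intervals of the first 4 members follow from this spread.

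*Acot1* and *Acot2* rose and fell together from liver to liver. Across the 8 livers, the log2 levels of the pair had a Pearson r of 0.89 (permutation p = 0.00308, adjusted p = 0.0525 over the 45 pairs of members) and a Spearman rho of 0.88 (permutation p = 0.00724, adjusted p = 0.163), and r was 0.93 without *Srsf10-kd* 2 and 3, the livers farthest from the median of *Acot1*. Part of their sequence is identical, as printed above. *Acot12* and *Acot13* went opposite ways, with an r of -0.91 (permutation p = 0.00208, adjusted p = 0.0525), a rho of -0.81 (permutation p = 0.0218, adjusted p = 0.327) and an r of -0.70 without *Srsf10-kd* 3 and *Ctrl* 4. These values pool both groups, between which the estimates of the pair differ in opposite directions. Within the groups, r was -0.88 over the *Srsf10-kd* livers and -0.81 over the *Ctrl* livers. For *Acot2* and *Acot7*, r was -0.91 (permutation p = 0.00350, adjusted p = 0.0525) and rho -0.88 (permutation p = 0.00724, adjusted p = 0.163). It fell to an r of -0.36 without *Srsf10-kd* 2 and 3, so the strength of this relation leans on those livers. Within the groups, r of *Acot2* and *Acot7* was -0.93 over the *Srsf10-kd* livers and -0.69 over the *Ctrl* livers. No pair of members had an adjusted p under 0.05.

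Ratios of counts within a liver do not depend on its library size. The ratio of *Acot12* to *Acot13* was 5.06, 3.84, 2.43 and 4.0 in *Srsf10-kd* livers 1 to 4 and 5.37, 5.84, 5.69 and 8.04 in *Ctrl* livers 1 to 4. No *Srsf10-kd* liver reached the lowest *Ctrl* liver, and the log2 difference was -0.73 ± 0.26 (SE, n = 4 per group, exact permutation p = 0.0286, adjusted over the 3 ratios p = 0.0857). The transcripts of this pair differ in length in the direction described above. The ratio of *Acot1* to *Acot2* lay between 5.05 and 5.58 in the *Ctrl* livers, whereas the *Srsf10-kd* livers were at 4.6, 4.44, 8.73 and 5.43, a log2 difference of 0.06 ± 0.23 (SE, exact permutation p = 0.943). The ratio of the peroxisomal *Acot3* to *Acot4* was 0.958, 1.52, 0.691 and 0.998 in *Srsf10-kd* livers and 0.685, 0.970, 0.814 and 0.603 in *Ctrl* livers, which overlapped, with a log2 difference of 0.41 ± 0.28 (SE, exact permutation p = 0.200, adjusted p = 0.300).

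Genes whose levels followed a member most closely were looked up among the other 15481 tested genes, as a description over the same 8 livers. For *Acot13* these were *Ube2r2*, *Pcbd1* and *Rmi1*, with r of 0.98 each. *Acot12* was followed by *Sema3b*, *Cyth1* and *Itih2* (r of 0.99 each), and *Acot1* by *Gm3604* (0.99), *Gm28564* (0.96) and *Wdr73* (0.95). The closest gene of each other member also reached a high r, from 0.93 for *Acot9* to 0.98 for *Acot8*. High values come easily when so many genes are searched over 8 livers, and none was tested.

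Among 9 other acyl-CoA thioesterases and related enzymes, 6 had enough counts to be tested, and none passed adjusted p 0.05 in edgeR. At unadjusted p under 0.05 stood 1 of the 6, a share below the 21.8% of all tested genes. *Acot6*, in the same cluster on chromosome 12, ranged from 1.17 to 2.44 CPM with a log2 fold change of 0.04 (edgeR adjusted p = 0.924), and *Acot5* had 1 to 6 counts, *Acot10* 0 to 3 counts and *Them5* 1 to 7 counts per liver. *Acnat1*, a peroxisomal acyltransferase of the same fold as type I members, was at 25.5, 26.9, 25.7 and 17.3 CPM in *Srsf10-kd* livers and at 34.8, 38.8, 30.1 and 42.9 CPM in *Ctrl* livers. These groups did not overlap, as for 14.3% of all tested genes, and 16.9% of the 75-base stretches of *Acnat1* recurred in *Acnat2*. The log2 fold change of *Acnat1* was -0.62 (unadjusted p = 0.0034, adjusted p = 0.119 in edgeR), with an adjusted p of 0.0217 in DESeq2. Its neighbour *Acnat2* had a log2 fold change of -0.01, *Baat*, which joins bile acids to taurine, of 0.15, *Them4* of 0.14 and *Hibch* of 0.05, each with an edgeR adjusted p of at least 0.398.

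The other steps of acyl-CoA handling held no gene past adjusted p 0.05 in edgeR or DESeq2, whereas limma-voom called *Acss3*, *Pank3* and *Acox3*. Over all tested genes, 48.7% had a lower estimate in *Srsf10-kd* livers, among them 74.8% of those with transcripts of 4000 bases or more, and 21.8% had an unadjusted p under 0.05, a share that each of the lists below stayed under. Of the acyl-CoA synthetases, which run opposite to the thioesterases, 14 of 18 tested genes had a lower estimate in *Srsf10-kd* livers, where the median was -0.11 on the log2 scale, and 1 gene, *Acss3*, was at unadjusted p under 0.05 (-1.16, adjusted p = 0.190). *Acsl1*, the main long-chain synthetase of liver, was at -0.40 and *Acsl4* at -0.31 (edgeR adjusted p = 0.236 and 0.275). Of 12 tested genes of coenzyme A synthesis and breakdown, the kinase gene *Pank3* was at -0.45 and *Nudt19*, a peroxisomal coenzyme A diphosphatase, at 0.32 (edgeR adjusted p = 0.166 and 0.211), with *Pank1* at -0.25, a median of -0.04 and 2 genes at unadjusted p under 0.05. Peroxisomal acyl-CoA handling, which supplies the substrates of *Acot3*, *Acot4* and *Acot8*, had 12 of 15 lower estimates and a median of -0.26, with the oxidases *Acox3* at -0.37 and *Acox2* at -0.26 and the transporter *Abcd3* at -0.28, and 2 genes at unadjusted p under 0.05. With the length trend removed, lower estimates numbered 14 of 18 for the synthetases, 7 of 12 for coenzyme A and 12 of 15 for peroxisomal handling, against 49.2% of all genes.

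*Ppara* was at 88.4, 84.6, 77.8 and 82.3 CPM in *Srsf10-kd* livers and at 177, 208, 168 and 234 CPM in *Ctrl* livers. It was lower in all 4 *Srsf10-kd* livers, with a log2 fold change of -1.24 (95% interval -1.52 to -0.96, edgeR adjusted p = 0.0166). Of 18 reference targets of PPARα, 13 had a lower estimate (median -0.15 on the log2 scale) and 0 passed adjusted p 0.05 in edgeR, with 1 at unadjusted p under 0.05, a share below the 21.8% of all tested genes. Lower estimates made up 48.7% of all tested genes, and with the length trend removed 17 of the 18 targets were lower, against 49.2%. *Hadha*, a subunit of the mitochondrial trifunctional protein, was at -0.49 and *Cpt1a*, the gate of fatty acids into mitochondria, at -0.66 (edgeR adjusted p = 0.210 and 0.237). Beside these, the type I members *Acot1*, *Acot2*, *Acot3* and *Acot4*, which are known to respond to PPARα in liver, had log2 fold changes of -0.27, -0.26, 0.04 and -0.39. With all livers, the adjusted p of *Ppara* was 1.2e-15 in DESeq2 and 0.0016 in limma-voom with sample quality weights. The log2 fold changes were -1.24 and -1.22. In edgeR, the adjusted p of *Ppara* was not under 0.05 when *Srsf10-kd* 1, 2 or 4 or *Ctrl* 2 was left out. In those fits the log2 fold changes lay between -1.27 and -1.21. The highest unadjusted edgeR p among them was 1.9e-05, without *Srsf10-kd* 4.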

How the data were processed

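Per the labels and the study's methods, poly(A) RNA of 8 mouse livers (4 per group) was sequenced, the reads were aligned to GRCm38 with STAR (2.7.7a in the submitters' processing notes), and the authors deposited raw read counts per gene, without normalization. The annotation release, strand setting and read filters are not given in the sources used here.

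Totals were 50456404 to 59697241 counts per liver. The comparison used edgeR 4.0.16 in R 4.3.3 (TMM, filterByExpr, quasi-likelihood test on group, Benjamini-Hochberg over 15491 genes, threshold 0.05), with a prior count of 2 for log2 CPM. Single genes also had two-sided exact permutation tests over 70 assignments, whose smallest p is 0.0286, as had ratios of counts with 0.5 added. Relations between members used all orders of the 8 livers, with adjustment over 45 pairs. Symbols, positions and lengths came from GENCODE M21 (45143 of 45706 identifiers), promoters from RefSeq (GRCm38.p6).

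Alternatives were DESeq2 1.42.0, limma-voom with sample quality weights (limma 3.58.1), other scaling, other filters, a block on the replicate number, fits that left out 1 liver, and removal of each library's lowess trend (span 0.5) on transcript length. On counts simulated for *Srsf10-kd* against *Ctrl* with 200 genes changed by 1.5 on the log2 scale, edgeR recovered 181 (90.5%) with 5 false calls over 15313 genes. Changes as small as the estimates of the members, a trend on transcript length and an outlying liver were not simulated. The recovery therefore does not tell how often differences of the members' size would be called. No pair of libraries was a duplicate (chi-square per degree of freedom of at least 34.2 in 28 pairs).

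Named genes were the members, *Srsf10*, *Ppara*, the other thioesterases, up to 3 genes of each pathway list with the smallest p, and the genes closest in pattern to a member, given for 3 members. 1 gene that this rule names is not reported here. The members and lists were chosen with earlier results of these data known, and the level order, shares, spreads and pairs of members were chosen after the values were seen.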

Additional observations from a re-analysis of the deposited data

How the results depend on the processing

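No member passed an adjusted p of 0.05 under any of the 16 alternatives, and the median log2 fold change of the members lay between -0.149 (length trend removed) and 0.0103 (without *Ctrl* 3). *Acot1*, *Acot4*, *Acot9*, *Acot12* and *Acot13* kept their direction in all 16, although *Acot1* ranged from -0.58 (without *Srsf10-kd* 4) through -0.09 (without *Srsf10-kd* 2) to -0.01 (limma-voom). The lowest adjusted p of *Acot13* was 0.0559, in DESeq2. With limma-voom and sample quality weights the log2 fold change turned to 0.0514 for *Acot2*, -0.0207 for *Acot7*, 0.0119 for *Acot8* and -0.43 for *Acot11*, and with the length trend removed to -0.11 for *Acot7*. Over the fits that left out 1 liver, values ranged from -0.54 to 0.0015 for *Acot2*, -0.19 to 0.29 for *Acot3*, -0.10 to 0.0491 for *Acot8* and -0.27 to 0.31 for *Acot11*. The log2 difference of the *Acot1* to *Acot2* ratio ranged from -0.15 (without *Srsf10-kd* 3) to 0.17. The cause of these changes was not tested.

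All genes past adjusted p 0.05 numbered 11 in edgeR, 890 in DESeq2, 1814 in limma-voom, 46 without a filter on low counts, 59 with the replicate number as a block, 6 with the length trend removed, and 0 to 544 with 1 liver left out (0 without *Srsf10-kd* 1, 2 or 4 or *Ctrl* 2, 4 and 5 when *Ctrl* 1 or 4 was dropped, 64 when *Srsf10-kd* 3 was and 544 when *Ctrl* 3 was). Pathway list genes past it numbered 0 in edgeR, 1 in DESeq2 (*Acnat1*) and 4 in limma-voom (*Acnat1*, *Acox3*, *Acss3* and *Pank3*). Same-numbered livers had correlations of -0.176, 0.213, 0.265 and 0.217 of their deviations, and 5 of 8 livers correlated best with their own number. Because number 1 did not correlate positively and nothing in the labels ties the numbers to a batch or animal, they were not read as pairs. Under the block 0 members were called, with log2 fold changes of 0.42 for *Acot13* and -0.31 for *Acot12*.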
